A study of Caenorhabditis elegans with 24 samples.

Results

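In heat-stressed adult Caenorhabditis elegans, 150 genes had less mRNA at 37 °C than at 20 °C while more ribosome footprints lay on them. Both measures are in CPM, the counts of a gene per 1000000 counts in genes of the same library. The genes were chosen by these same values. Of 19669 genes counted, 6104 had a mean of at least 10 CPM in both assays. For each of these the mean of 6 libraries at 37 °C was divided by the mean of 6 libraries at 20 °C after adding 0.5 CPM to each. Among the 739 genes with an mRNA log2 ratio of −0.7 or lower and a footprint log2 ratio of 0.7 or higher, the 150 with the largest footprint minus mRNA difference were kept. Their opposite movement is therefore a description, also where edgeR calls of heat in the same libraries are given.

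The worms were of the strains Wild Type N2 (WT) and deltaC38delta4.9, a deletion of C38D4.9, the gene metl-5, whose product is known as a methyltransferase of ribosomal RNA. Each strain was sampled as adult worms at 20 and at 37 °C, without any further agent in the labels. mRNA sequencing and ribosome profiling gave 3 libraries per strain, temperature and assay, 24 in all. The sex of the worms, the length of the 37 °C exposure and the origin of the replicates are not stated in what was used here, so p-values measure the spread between these libraries, which may be technical.

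Ribosome profiling sequences the stretches of mRNA that ribosomes shield from nuclease. A footprint level depends on how much mRNA of a gene there is and on how many ribosomes each mRNA carries, and the ratio of the footprint to the mRNA level is called translational efficiency. In worms, severe heat is known to induce chaperone genes through the transcription factor HSF-1, and stress in general is known to redistribute ribosomes among mRNAs.

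The mRNA libraries held 15522050 to 17239906 gene counts. Footprint libraries held 11503305 to 19012050 at 20 °C and 4410194 to 10947947 at 37 °C. The lowest count of any of the 150 genes in any library was 13 for mRNA and 28 for footprints. The deleted gene metl-5 was at 6.48 to 10.2 CPM of mRNA in WT and 2.15 to 3.38 CPM in the mutant, and its footprints were at 4.44 to 8.40 CPM and 0.804 to 7.85 CPM. Genes marking the intestine, hypodermis, body wall muscle, neurons, germline and oocytes, and sperm were all detected in every library, with 0 markers at 0. Footprints went against the labels in 6 libraries, called doubted below. WT 20 °C replicate 2, WT 37 °C replicate 3, and metl-5 37 °C replicates 2 and 3 held markers of both strains, with 27 to 147 counts per marker gene of the other strain (ZK228.3, ZK228.4 or cTel55X.1), against 0 or 1 in the other footprint libraries. In replicate 2 of the mutant at 20 °C and replicate 2 of WT at 37 °C the chaperone gene hsp-70 stood between the temperatures, at 5083 and 6909 CPM, against 10.8 to 33.7 CPM in the other 20 °C libraries and 16100 to 24087 CPM in the other 37 °C libraries. Without the doubted libraries 4 footprint libraries remained at 20 °C and 2 at 37 °C, replicate 1 of each strain.

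Across the 150 genes the median mRNA level was 71.4 CPM at 20 °C and 23.2 CPM at 37 °C. The median footprint level was 16.7 CPM at 20 °C and 46.2 CPM at 37 °C. The log2 ratios of mRNA lay between −2.52 and −0.74 with a median of −1.61, and those of footprints between 0.73 and 2.52 with a median of 1.42. Over all 6104 genes the medians were −0.53 and 0.26. Every value is relative to the rest of a library. With TMM scaling, which takes most genes as unchanged, the median of all 6104 genes moved to −0.01 for mRNA and 0.18 for footprints. The medians of the 150 genes then were −1.12 and 1.35, and all 150 kept a lower mRNA and a higher footprint value. In whole worms, fewer cells of a type and less RNA per cell cannot be told apart.

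**Figure D1:**
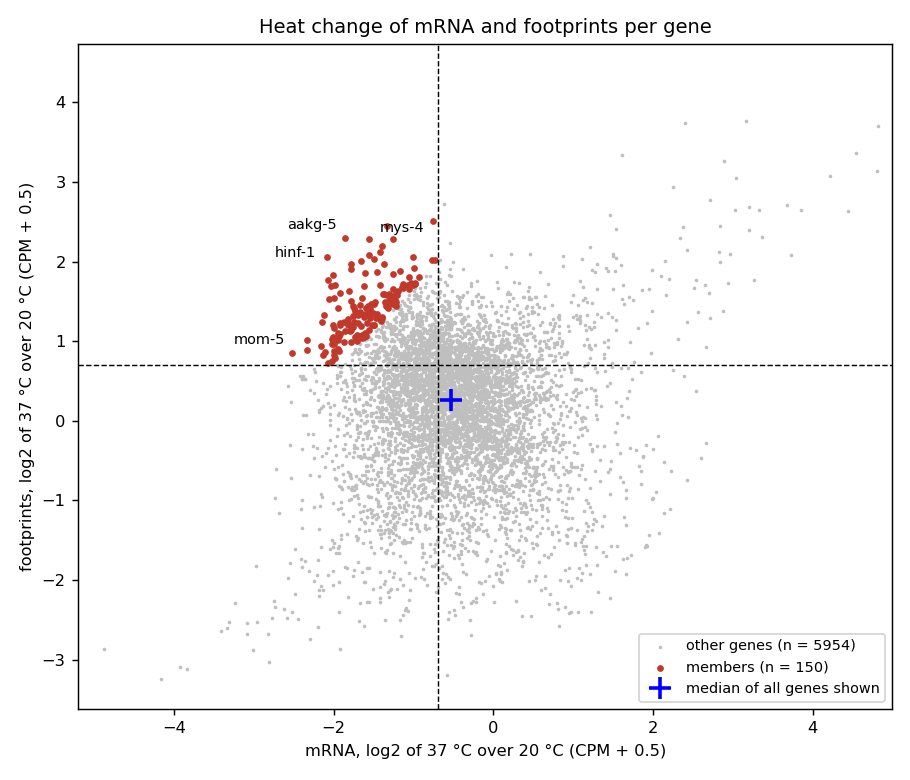
Log2 ratio of 37 °C over 20 °C for mRNA (horizontal axis) and footprints (vertical axis), one point per gene, for the 6104 genes with a mean of at least 10 CPM in both assays. The 150 genes (red) fill the outer upper left corner past both thresholds (dashed lines), and the median of all genes (blue cross) lies at −0.53 and 0.26.

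The cut fell in a dense part of the distribution. Just inside it were the cyclin genes cye-1 and cya-1 with differences of 2.668 and 2.667, and F10E9.11 with 2.665. Just outside were pos-1, an RNA-binding regulator of early embryos, at 2.665, met-1, a histone methyltransferase gene, at 2.664, and slfl-3 at 2.661. For pos-1 the log2 ratios were −1.57 for mRNA and 1.09 for footprints, within the range of the 150 genes on both axes.

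By library, the median mRNA level over the 150 genes was 46.1 to 86.7 CPM at 20 °C and 14.6 to 34.2 CPM at 37 °C. The median footprint level was 13.3 to 25.2 CPM at 20 °C and 27.1 to 62.2 CPM at 37 °C. Neither pair of ranges overlapped. The highest footprint value at 20 °C and the lowest at 37 °C came from the libraries with intermediate hsp-70, 1 of the mutant at 20 °C and 1 of WT at 37 °C. In the former, 133 of the 150 genes were above all other 20 °C libraries and 145 were below all 37 °C libraries except the latter. In the latter, 137 were above all 20 °C libraries except the former and 142 below all other 37 °C libraries. The 2 replicates numbered 2 also had the highest mRNA medians at 37 °C, 34.2 CPM in WT and 30.1 CPM in the mutant.

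**Figure D2:**
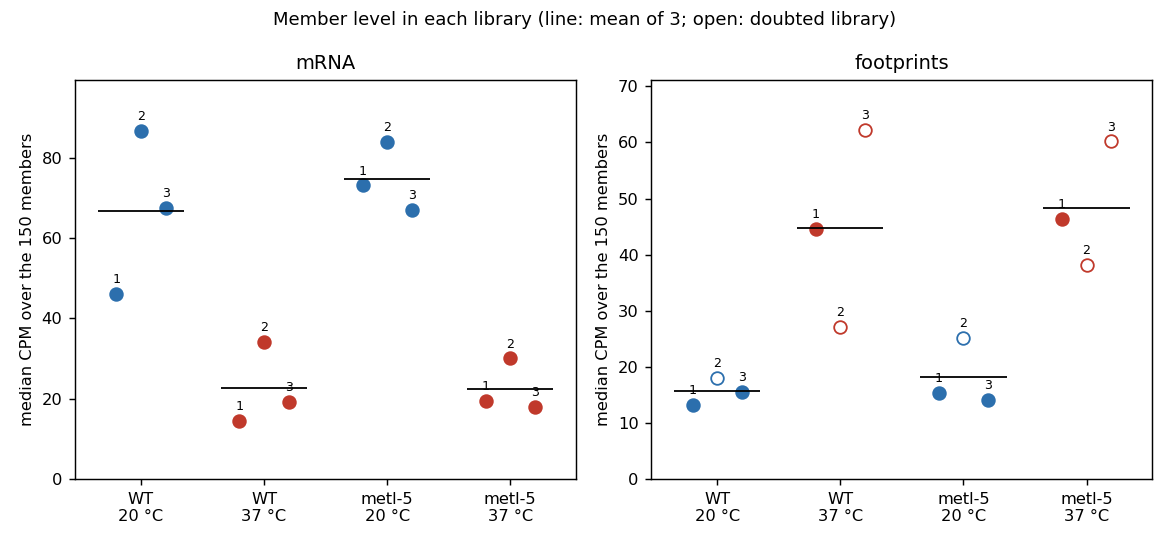
Median CPM over the 150 genes in each of the 24 libraries, for mRNA (left) and footprints (right), with replicate numbers; lines are means of 3 and open circles are the 6 doubted libraries. mRNA lies at 46.1 to 86.7 at 20 °C and 14.6 to 34.2 at 37 °C, and footprints at 13.3 to 25.2 and 27.1 to 62.2.

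Gene by gene, all 6 mRNA libraries at 37 °C lay below all 6 at 20 °C for 126 of the 150 genes, against 27% of the 6104 genes. All 6 footprint libraries at 37 °C lay above all 6 at 20 °C for 97 genes, against 20.4%. Without the doubted libraries the footprint ranges were apart for all 150 genes, against 50.4%. These counts use the values that chose the genes and are given as a description. The same holds for the edgeR tests of heat, with a Benjamini-Hochberg adjusted p under 0.05 over all genes tested. mRNA was lower in 116 genes in WT (8.5% of 13315 genes were called lower) and in 112 in the mutant (9.16%). Footprints were higher in 120 in WT (9.78% of 12387) and 137 in the mutant (12.2%). Translational efficiency was higher in 150 in WT (11% of 12079) and in 150 in the mutant (11.2%). Over the 6104 genes, which met the same level minimum, the shares in WT were 12.5, 15.5 and 19.2%. For translational efficiency in the mutant it was 19.2%. The footprint counts moved with single libraries, to 0 in WT without 20 °C replicate 1 or 3 or 37 °C replicate 1 or 3, and in the mutant to 0 without 20 °C replicate 1, 7 without 20 °C replicate 3, 77 without 37 °C replicate 1 and 39 without 37 °C replicate 3. Those of mRNA fell to 71, 65 and 67 in WT without 20 °C replicate 2, 37 °C replicate 1 and 37 °C replicate 3, and to 69 in the mutant without 37 °C replicate 3. Translational efficiency stayed at 148 to 150 in WT and 149 to 150 in the mutant.

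The gene with the largest difference was aakg-5 (WBGene00011276, WBcel235 chromosome II, 9971035 to 9975125, minus strand), of the family of gamma subunits of the energy sensor AMP-activated kinase. At 20 °C its mRNA was at 52.0, 81.0 and 75.03 CPM in WT and 76.9, 87.0 and 77.9 CPM in the mutant. At 37 °C it was at 11.98, 28.0 and 17.4 CPM in WT and 21.6, 26.1 and 16.3 CPM in the mutant. All 37 °C libraries were below all 20 °C libraries. Footprints at 20 °C were at 9.10, 10.98 and 9.65 CPM in WT and 8.25, 19.7 and 9.39 CPM in the mutant. Those at 37 °C were at 52.8, 21.9 and 79.1 CPM in WT and 61.9, 49.2 and 75.2 CPM in the mutant. The temperatures did not overlap, and the nearest values, 19.7 and 21.9 CPM, belonged to the libraries with intermediate hsp-70. The log2 ratios were −1.86 and 2.29.

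Next came hinf-1 (chromosome I, 14791040 to 14794392), a homolog of the transcription factor that drives histone H4 genes in mammals. Its mRNA lay at 61.4 to 134 CPM (median 103) at 20 °C and 14.7 to 34.0 CPM (22.2) at 37 °C. Its footprints lay at 21.1 to 68.4 CPM (26.8) and 79.5 to 210 CPM (140). Neither assay overlapped between temperatures. For mys-4 (I, 8333082 to 8336727), of the MYST family of histone acetyltransferases, mRNA was at 15.6 to 42.4 CPM (23.3) and 5.50 to 11.5 CPM (9.07). Its footprints were at 3.00 to 12.5 CPM (4.46) and 12.5 to 40.9 CPM (30.4), with the highest 20 °C and the lowest 37 °C library nearly touching.

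The nuclear receptor gene nhr-23 (I, 7214745 to 7221299), a driver of the larval molts, had 21.6 to 64.5 CPM of mRNA (46.8) at 20 °C and 7.21 to 20.4 CPM (10.2) at 37 °C. Its footprints were at 5.95 to 12.9 CPM (8.88) and 16.0 to 46.6 CPM (39.0), again with no overlap. The zinc transporter family gene zipt-1 (I, 15050797 to 15052420) had mRNA log2 and footprint log2 ratios of −1.98 and 1.70. Its mRNA did not overlap, but 1 footprint library at 37 °C, at 28.9 CPM, was below the highest at 20 °C, at 29.7 CPM. Overlap was also seen for footprints of rbmx-2 (II, 6195811 to 6196948), a spliceosomal RNA-binding protein gene, whose ratios were −2.08 and 1.77. The remaining genes of the top 10, C48B4.11, W04A8.6, Y67H2A.10 and T28B11.1, had mRNA ratios of −2.03 to −1.33 and footprint ratios of 1.69 to 2.45, with no overlap in either assay.

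**Figure D3:**
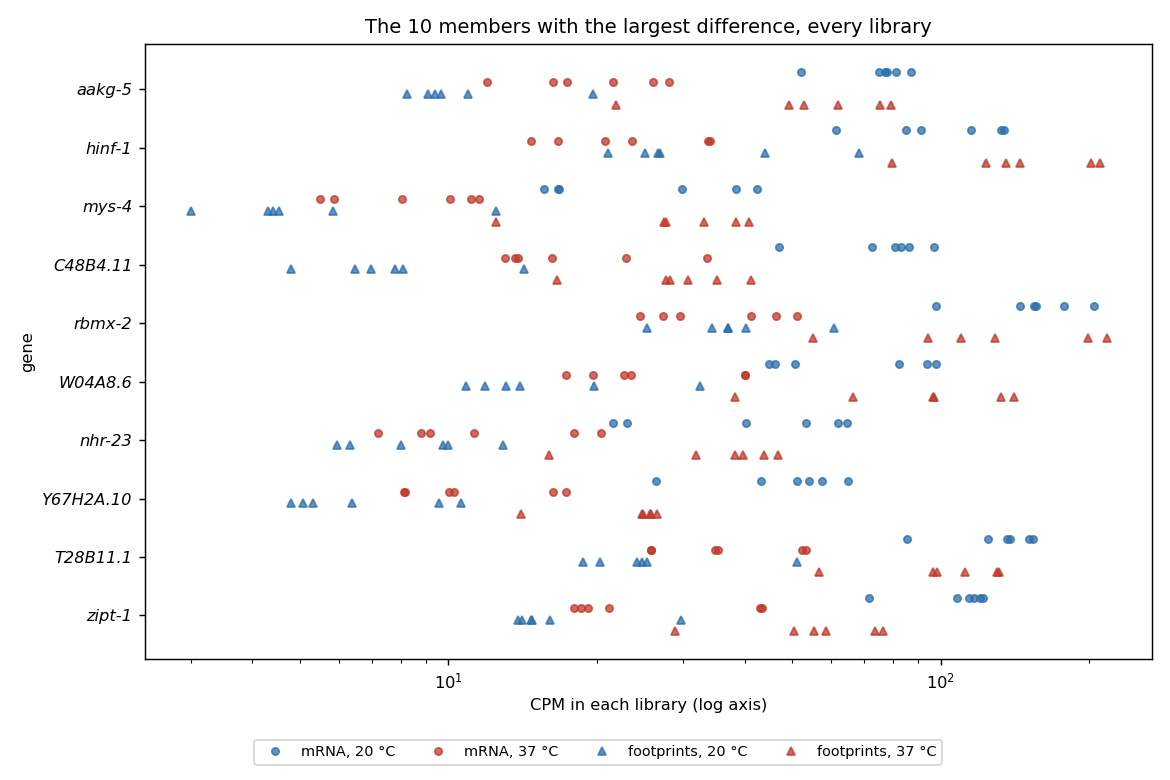
CPM in every library (log axis) for the 10 genes with the largest footprint minus mRNA difference, mRNA as circles and footprints as triangles, 20 °C in blue and 37 °C in red. For aakg-5 mRNA is at 52.0 to 87.0 at 20 °C and 11.98 to 28.0 at 37 °C, and footprints go the other way, from 8.25 to 19.7 to 21.9 to 79.1.

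Genes grouped by role below were picked from the 150 after their values were seen, so the groups carry no test. In cell cycle and replication, 6 genes had mRNA ratios of −2.06 to −1.23 and footprint ratios of 0.75 to 1.53. The replication kinase gene cdc-7 (I, 5872174 to 5874343) had 56.4 to 96.4 CPM of mRNA (79.8) at 20 °C and 10.9 to 33.17 CPM (16.8) at 37 °C. Its footprints were few, at 3.31 to 8.12 CPM (6.25) and 12.7 to 27.6 CPM (17.3). Both assays separated the temperatures. The cyclin E gene cye-1 (I, 6780799 to 6784397), which drives entry into S phase, had 89.4 to 151 CPM of mRNA (118) and 31.2 to 68.4 CPM (53.9). Its footprints were at 54.9 to 100.6 CPM (69.5) and 108 to 280 CPM (196), also without overlap. The cyclin A gene cya-1, the phosphatase gene cdc-14, the kinase subunit gene cks-1 and the checkpoint adaptor gene clsp-1 completed the group.

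DNA repair and chromosome genes were eco-1, a cohesin acetyltransferase gene, brc-2, the BRCA2 homolog, the nuclease gene fan-1, the helicase gene rtel-1, rmh-1 and the endonuclease gene apn-1. Their mRNA ratios were −1.87 to −1.59 and their footprint ratios 0.99 to 2.0. For eco-1 (III, 7357663 to 7359095) mRNA was at 56.6 to 114 CPM (73.1) at 20 °C and 17.1 to 39.9 CPM (21.2) at 37 °C. Its footprints were at 8.84 to 25.1 CPM (12.1) and 30.1 to 94.4 CPM (50.9). Only eco-1 among these 6 had footprints without overlap between temperatures.

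Histone and chromatin genes numbered 8, with mRNA ratios of −2.09 to −1.31 and footprint ratios of 1.02 to 2.29. Beside hinf-1 and mys-4 they included nasp-1, a histone chaperone gene, chaf-1, of the chromatin assembly factor CAF-1, the SET domain gene set-14, cfp-1, mig-32 and lin-36. For nasp-1 (II, 11106612 to 11108070) mRNA was at 127 to 219 CPM (155) and 40.2 to 87.1 CPM (59.0). Its footprints were at 36.1 to 107 CPM (51.3) and 134 to 428 CPM (249), among the 5 highest mean footprint CPM of the 150 genes, a level not scaled by gene length. The temperatures did not overlap in either assay.

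Splicing and RNA processing held 8 genes with mRNA ratios of −2.08 to −1.28 and footprint ratios of 0.83 to 1.77. The U1-associated splicing factor gene prp-40 (III, 9522075 to 9525454) had 143 to 290 CPM of mRNA (219) and 38.0 to 82.1 CPM (50.5). Its footprints were at 88.2 to 129 CPM (105) and 135 to 302 CPM (213). The gene overlaps mrps-23 on the other strand, and unstranded mRNA reads of the overlap cannot be told apart. For prp-17 (I, 10936815 to 10940521) the footprint CPM was already 1.08 times the mRNA CPM at 20 °C, the highest ratio of the 150 genes at that temperature, and 7.11 times at 37 °C. Alternative splicing regulator asd-1, rbm-25, sluh-7, snrp-27, rbmx-2 and the Integrator gene ints-1 were the others.

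The small RNA genes were drsh-1 and pash-1, which encode the Drosha nuclease and its partner in microRNA maturation, sid-1, a double-stranded RNA channel gene, and hrde-2. The Microprocessor genes had nearly the same values, with mRNA ratios of −1.73 and −1.58 and footprint ratios of 1.06 and 1.22. Footprints of drsh-1 (I, 9781324 to 9785724) were at 10.5 to 30.5 CPM (19.04) at 20 °C and 30.6 to 61.5 CPM (40.6) at 37 °C. Those of pash-1 (I, 10598673 to 10606621) were at 20.1 to 45.3 CPM (26.03) and 47.3 to 96.8 CPM (69.8). Neither gene overlapped between temperatures in either assay.

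In signalling, 4 genes came from the Notch and Wnt pathways. The Notch receptor gene glp-1 (III, 9092241 to 9099698), which keeps germline stem cells dividing, had 60.4 to 142 CPM of mRNA (92.6) and 21.8 to 66.9 CPM (41.1), with overlap. Its footprints were at 21.3 to 45.7 CPM (23.6) and 54.2 to 129 CPM (114), without overlap. The gene of its DNA-binding effector, lag-1 (IV, 6095407 to 6110655), had ratios of −2.0 and 1.54. In the Wnt pathway, the Frizzled receptor gene mom-5 (I, 9965574 to 9970037) had the lowest mRNA ratio of the 150, −2.52. Its mRNA was at 79.3 to 162 CPM (148) and 14.04 to 37.8 CPM (18.6), and its footprints at 24.4 to 49.3 CPM (28.5) and 45.6 to 68.4 CPM (60.1), with overlap in the footprints only. The Dishevelled gene mig-5 had ratios of −1.06 and 1.71. All 4 overlap a gene on the opposite strand.

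Lysosome, autophagy and vesicle genes were syx-17, a syntaxin gene, cup-5, the mucolipin homolog, epg-4, vps-33.2 and ocrl-1. Footprints of syx-17 (I, 8644460 to 8646304) were at 26.6 to 57.0 CPM (28.7) and 66.7 to 163 CPM (128), while its mRNA was at 42.2 to 69.5 CPM (59.1) and 12.4 to 33.4 CPM (15.2). For cup-5 (III, 7584181 to 7591581) footprints were at 8.45 to 20.4 CPM (13.6) and 22.6 to 44.9 CPM (35.5), and mRNA at 34.1 to 82.3 CPM (65.9) and 7.08 to 27.4 CPM (10.7). Both genes separated the temperatures in both assays. The GPI anchor synthesis genes pigu-1 and pigm-1 had mRNA ratios of −2.0 and −1.26. The gene with the highest mean footprint CPM was cpb-3 (I, 5788634 to 5791752), of the CPEB family of germline mRNA regulators. Its mRNA was at 118 to 255 CPM (212) and 24.4 to 65.6 CPM (45.03), and its footprints at 159 to 260 CPM (210) and 248 to 529 CPM (399), with overlap in the footprints.

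The ratio of footprint to mRNA CPM, in which gene length cancels only in part, follows from the values that chose the genes. At 20 °C its median was 0.278 over the 150 genes and 0.907 over the 6104, and at 37 °C 2.46 and 1.497. The median gene stood at percentile 9.27 of all 6104 at 20 °C and at percentile 73.8 at 37 °C. The extremes were the F-box gene fbxa-215, with the lowest ratio at both temperatures (0.0253 and 0.212), and cpb-3, with the highest at 37 °C (8.86). F-box genes form a large family, and reads that match several near-identical copies could be left out of the counts. This was not tested for fbxa-215.

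**Figure D4:**
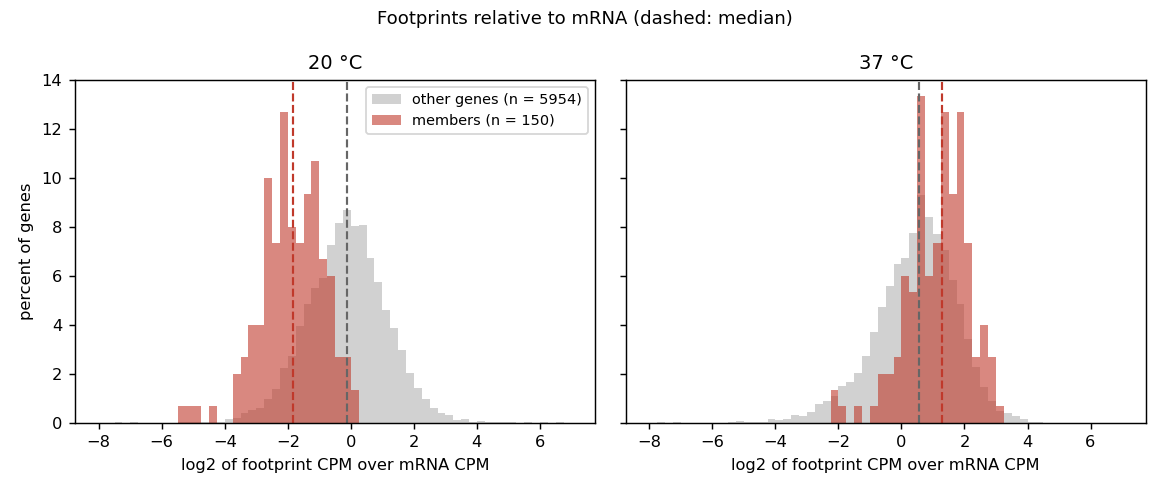
Distribution of the log2 ratio of footprint CPM to mRNA CPM at 20 °C (left) and 37 °C (right), as percent of genes, for the 150 genes (red) and the other 5954 (grey), with medians dashed. The red distribution lies left of the grey at 20 °C and right of it at 37 °C.

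The rule was also applied in one strain and its genes were read in the other, whose libraries had no part in that choice. All of these libraries took part in choosing the main set. The 150 genes chosen in WT shared 133 with the set described above. In the mutant libraries 148 of them were past both thresholds, against 12.5% of 5945 genes that met the level minimum in each strain, with median ratios of −1.69 for mRNA and 1.41 for footprints. With edgeR, mRNA was lower in 102 (9.16% of all genes tested), footprints were higher in 137 (12.2%) and translational efficiency was higher in 148 (11.2%). Without the doubted libraries the last 2 counts were 131 (9.31%) and 149 (7.38%). With all libraries, translational efficiency in the mutant was called higher in 19.2% of the 6104 genes at the level minimum.

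The genes chosen in the mutant, of which 133 were also in the main set, were read in WT in the same way. There 144 of 150 were past both thresholds, against 12.1%. edgeR called lower mRNA in 114 (8.5%), higher footprints in 117 (9.78%) and higher translational efficiency in 150 (11%). Over the 6104 genes at the level minimum those shares in WT were 12.5, 15.5 and 19.2%. Without the doubted libraries the counts for footprints and translational efficiency were 109 (8.57%) and 143 (6.38%). The strains are not fully separate, and the counts past both thresholds include the doubted libraries. The edgeR fits share an estimate of spread, 4 footprint libraries held markers of both strains, and same-numbered libraries of the strains deviated together. The counts of footprint calls also depend on single libraries: without WT 20 °C replicate 1 or 3, or WT 37 °C replicate 1 or 3, edgeR called higher footprints in 0 of all genes in WT. The same held in the mutant without its 20 °C replicate 1.

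The strain comparison was not used by the rule. Called in the mutant against WT were 0 of the 150 genes in each of 8 edgeR tests, of mRNA and footprints at 20 °C, at 37 °C and in the interaction of strain with temperature, and of translational efficiency at either temperature. An unadjusted p under 0.05 was reached by 0 of the 150 in each, and DESeq2 also called 0. With replicate numbers in the fit edgeR again called 0 of the 150. The main fits did not use the replicate numbers, by which the strains deviated together, so their p-values may be too large. Among all genes 4 mRNAs were called at 20 °C and 4 at 37 °C (0.03% each), and 0 in the other 6 tests, where 48 to 238 genes had an unadjusted p under 0.05 and DESeq2 called 0 to 3. On simulated counts for the strain comparison at 20 °C, edgeR recovered 46% of 2-fold changes in mRNA (13016 genes), 13% in footprints (12162 genes) and 3% in translational efficiency (11976 genes), and 95, 91 and 65% of 4-fold changes. The counts of 0 thus leave room for 2-fold differences in all 3 measures and, for translational efficiency, for 4-fold differences. The changed genes were drawn from those with a mean of at least 10 CPM, with the same mean in every group before the change. Mean footprints of the 150 genes at 20 °C were as low as 2.70 CPM (median 16.7), so these recovery rates may not hold for them. The comparison at 37 °C and the interaction were not simulated. The simulated libraries were drawn independently, without the shared deviations of same-numbered libraries, and held no mixture of strains. For translational efficiency each gene had the same mean in both assays before the change. Footprints of WT 20 °C replicate 2, WT 37 °C replicate 3 and mutant 37 °C replicates 2 and 3 held markers of both strains. In those mutant libraries metl-5 footprints were at 7.85 and 5.35 CPM, within the range of WT. At 20 °C WT replicate 2 held 147 footprint counts of cTel55X.1, against 0 in WT replicates 1 and 3. Mutant replicate 2 had footprints of hsp-70 at 5083 CPM. For footprints and translational efficiency at either temperature, and for the footprint interaction, the counts of 0 therefore cannot tell whether the strains differ.

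The members nearest to a call, picked for the smallest p, show the spread between libraries. For F10E9.3 (III, 8311007 to 8312587) mRNA at 37 °C was at 23.8, 47.8 and 26.2 CPM in WT and 39.8, 56.7 and 36.3 CPM in the mutant. The strains overlapped through WT replicate 2, though the mutant was higher in each same-numbered pair. The log2 difference was 0.46 ± 0.24 (SE, edgeR adjusted p = 1, and 0.984 to 1 over the alternatives). This SE, like those below, is from a fit without replicate numbers, so it is not the spread of the paired difference. For fbxa-215 footprints at 20 °C were at 2.26, 6.69 and 3.52 CPM in WT and 5.47, 14.4 and 4.96 CPM in the mutant. Again they overlapped, though the mutant was higher in each same-numbered pair. The highest value came from the mutant library with intermediate hsp-70. The difference was 0.99 ± 0.50 for footprints and 0.97 ± 0.56 for translational efficiency, both with an edgeR adjusted p of 1. For cit-1.1, a cyclin T gene with a close paralog, the translational efficiency difference at 37 °C was 0.73 ± 0.42 and the footprint interaction 0.59 ± 0.39 (edgeR adjusted p = 1 for both). The smallest p of the remaining tests belonged to Y54G2A.12 (mRNA at 20 °C, 0.36 ± 0.28), T16G12.6 (footprints at 37 °C, 0.31 ± 0.22, edgeR adjusted p of 0.673 to 1 over the alternatives) and R10H10.7 (mRNA interaction, −0.46 ± 0.34).

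The median strain difference of mRNA over the 150 genes was 0.05 at 20 °C and 0.02 at 37 °C on the log2 scale, with 46 and 66 genes below 0. For footprints it was 0.21 and 0.18, with 13 and 6 genes below 0. Without the pair of libraries with intermediate hsp-70 the footprint medians were 0.00 and −0.07, with 74 and 108 genes below 0. The higher footprint medians in the mutant were thus not seen without that pair. Their same-numbered partners, WT replicate 2 at 20 °C and mutant replicate 2 at 37 °C, stayed in. With the pair set aside, 100 of the 150 genes in the former were above the other 20 °C libraries. In the latter 96 were below the other 37 °C libraries. Leaving out 1 library of a same-numbered pair can itself lower the difference. The source of the fall was not tested.

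**Figure D5:**
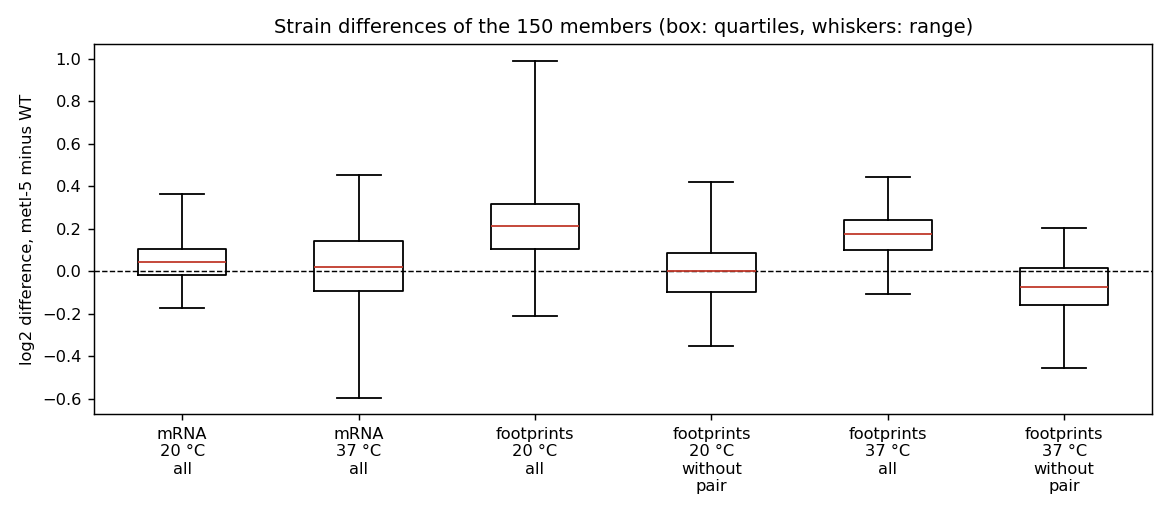
Log2 differences of the mutant minus WT over the 150 genes, for mRNA and footprints at 20 and 37 °C, with boxes for quartiles and whiskers for the range. The footprint medians of 0.21 and 0.18 with all libraries became 0.00 and −0.07 without the pair of libraries with intermediate hsp-70.

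The gene lists were matched to the 6104 genes, of which the 150 are 2.46%. Of 43 lists 12 held a member, and 24 of the 150 genes were in any list. Cell cycle and DNA replication genes held 4 of the 150 among 92, chromatin and transcription regulators 4 among 126, splicing factors 3 among 51, vesicle traffic genes 4 among 103, and autophagy and lysosome genes 2 among 31, or 3.17 to 6.45% of each list. F-box, BTB and MATH proteins held 2 among 29, nuclear hormone receptors 1 among 12 and germline regulators 1 among 85 (1.18%). No member was found among 73 cytosolic ribosomal protein genes, 90 cuticle collagens, 60 sperm genes, 42 oocyte and eggshell genes or 18 secreted and lysosomal proteases, where the share of 2.46% would give 0.442 to 2.21 genes per list. The counts per list are small and were not tested. The median log2 ratios of mRNA and footprints were −0.74 and 0.39 for the cell cycle list, −0.72 and 0.60 for chromatin and −0.50 and 0.62 for splicing, against −0.53 and 0.26 over all genes. For collagens they were 1.14 and −1.44.

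The edgeR calls of heat over these lists are set beside the calls over all 6104 genes at the level minimum. In WT translational efficiency was higher in 27 and lower in 0 of the 92 cell cycle genes, higher in 44 and lower in 1 of the 126 chromatin genes, and higher in 10 and lower in 1 of the 51 splicing factors. Those are 29.3, 34.9 and 19.6% higher, against 19.2% of the 6104 genes, while 11.2% of the 6104 were lower. In the mutant the counts were 24 and 3, 41 and 2, and 7 and 1, or 26.1, 32.5 and 13.7% higher against 19.2%, with 13.6% lower over the 6104. In translational efficiency, splicing factors were thus near or below the share of all genes. The matching mRNA calls in WT were 1 higher and 14 lower, 9 and 22, and 1 and 4, or 15.2, 17.5 and 7.84% lower against 12.5%, with 12.4% higher over the 6104. The footprint calls in WT were 13 and 0, 35 and 1, and 12 and 0, or 14.1, 27.8 and 23.5% higher against 15.5%, with 7.08% lower over the 6104. These counts include the listed genes that the rule chose.

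Markers of cell types also moved between the temperatures. The summed mRNA level of 5 germline and oocyte markers was 2213 to 3947 CPM at 20 °C and 1284 to 3115 CPM at 37 °C, and their summed footprints 1792 to 2988 and 1890 to 3093 CPM. That footprint sum joins markers with opposite log2 ratios, 0.85 for pgl-1 and 0.47 for puf-5 against −0.12 for glh-1, −0.94 for rme-2 and −1.82 for cpg-2. The summed mRNA of 3 sperm markers was 203 to 701 CPM at 20 °C and 98.4 to 128 CPM at 37 °C. The summed mRNA of 3 hypodermis markers was 1811 to 2800 CPM at 20 °C and 3629 to 5829 CPM at 37 °C, and their footprints 1634 to 2510 and 207 to 1111 CPM, apart in both assays and in opposite directions. These sums are mostly col-19, with mean footprints of 1996 and 553 CPM and a footprint log2 ratio of −1.85. The footprint log2 ratio was −1.09 for rol-6 but 0.80 for dpy-7, both at low levels. Intestinal footprints, over 6 markers, were at 21240 to 32865 CPM at 20 °C and 4078 to 18180 CPM at 37 °C, while their mRNA overlapped, at 7383 to 12399 and 8725 to 13048 CPM. Footprints of 4 heat shock genes were at 483 to 10598 CPM and 15213 to 39133 CPM. Their part in the levels of the 150 genes was not tested.

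By position, in the WBcel235 annotation, 2 of the 150 genes (1.33%) lay on the X chromosome, against 8.16% of 6103 annotated genes at the level minimum. Chromosomes I and III held 27.3 and 25.3%, against 21.1 and 20.1%, and chromosome V 10% against 15.9%. A gene on the opposite strand overlapped 46 (30.7%, against 25.1%). For 56 (37.3%, against 26%) the next gene upstream on the same strand ended within 500 bases or overlapped, and in 4 cases (2.67%, against 0.721%) that gene was itself among the 150. These neighbours were C16C2.4 and ocrl-1, zhit-2 and Y44F5A.1, C48B4.10 and C48B4.11, and zgpa-1 and cdgs-1. The median coding length was 1379 bases against 1170, the median number of exons 6 in both, and the median 3′UTR 221 bases against 159. These shares were not tested.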

How the data were processed

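mRNA sequencing and ribosome profiling of 24 libraries were deposited by the authors as raw counts of reads per gene, and STAR and DESeq2 are named in the submitters' processing notes without versions. Not given in the sources used here are the genome build and the annotation of the counts. Gene places come from the WBcel235 annotation (Ensembl), which held 19568 of the 19669 genes. Unstranded counts were used for mRNA, since 50.5 to 50.9% lay on the sense strand, and sense counts for footprints (99.6 to 99.9%). Reads in no gene, or in several, were 19.5 to 27.1% of mRNA and 14.7 to 52.0% of footprint libraries and were left out. Groups come from the labels, with 3 libraries each, and 0 pairs of libraries were identical.

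The members, gene lists and tests were chosen with earlier results of these data known. CPM is counts per 1000000 gene counts. edgeR 4.0.16 (R 4.3.3) was run per assay with filterByExpr, TMM and the quasi-likelihood test over 4 groups, and for translational efficiency over all 24 libraries and 8 groups as an interaction with assay. All 150 genes were tested in each model. Adjusted p-values are Benjamini-Hochberg over all genes tested at 0.05. SE is the log2 difference over the square root of F. The fits were tested on simulated data with 200 changed genes. Alternatives were DESeq2 1.42.0, RLE scaling, no filter, the replicate block, other strand columns, and leaving out libraries.

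Replicate numbers pair the strains within a temperature: the deviations of same-numbered libraries from their group means correlated at 0.146 to 0.514 for mRNA and 0.308 to 0.601 for footprints, over 0.1 in every pair. Across temperatures within a strain, footprints correlated at 0.157 to 0.509, also over 0.1 in every pair, and mRNA at −0.03 to 0.395, not over 0.1 in every pair. The labels do not say what the numbers mark. Named genes were the 10 with the largest difference, the 5 with the highest mean footprint CPM, 3 genes either side of the limit of 150, up to 3 members of lists holding at least 3, and the gene with the smallest p in each of 8 strain tests. Others named were chosen after their values were seen. Sequence features were not analysed here.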

Additional observations from a re-analysis of the deposited data

How the results depend on the processing

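Applied to other versions of the data, the rule kept 133 of the 150 genes with WT or with mutant libraries alone, 140 without the pair of libraries with intermediate hsp-70, 120 without the 6 doubted libraries, 126 with TMM, 128 with DESeq2 size factors, 120 with a pseudocount of 5 and 141 to 147 without each library in turn. The number of genes past both thresholds moved from 739 to 247 with TMM, 264 with DESeq2 size factors and 260 with thresholds of 1 and −1. Leaving out 1 library at a time, lower mRNA was called in 65 to 128 of the 150 genes in WT and 69 to 117 in the mutant, and higher footprints in 0 to 146 and 0 to 144. No other setting moved a count of called members by more than 1.5 times, and 0 members were called in the 8 strain tests under each alternative. With the replicate block, lower mRNA was called in 136 and 132, higher footprints in 140 and 144, and higher translational efficiency in 150 and 150 (WT and mutant). Over all genes the block raised these shares to 13.99 and 14.4%, 16.96 and 18.7%, and 15.1 and 14.8%. In the strain tests the block called 0 members, and of all genes the mRNA of 2 higher and 6 lower at 20 °C and of 2 higher and 3 lower at 37 °C. Footprint libraries at 37 °C were the shallowest, which limits the precision of footprint values there. Without single libraries the median strain difference ranged from −0.11 to 0.20 for mRNA at 20 °C, −0.10 to 0.26 for mRNA at 37 °C, 0.02 to 0.34 for footprints at 20 °C and −0.08 to 0.51 for footprints at 37 °C. The cause of these shifts was not tested.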
